A study of Homo sapiens with 14 samples.

Results

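Histone genes were followed in 14 mRNA libraries of the human prostate cancer line CWR22Rv1. Treatment lasted 72 h. It was the vehicle DMSO in 3 libraries, Fucotrim I at 30 μM in 3, Fucotrim II at 60 μM in 2, SGN-2FF at 100 μM in 3 and P-SiaFNEtoc at 2 μM in 3. Fucotrim I and II were made to block GMDS, the enzyme that opens the route from GDP-mannose to GDP-fucose, SGN-2FF is a fluorinated fucose that blocks fucosylation, and P-SiaFNEtoc is an inhibitor of sialyltransferases. All groups were cultures of this 1 line, and since each compound was used at its own dose the compounds are set side by side and not compared with each other. The members were chosen by gene symbol. They were the replication-dependent histone genes of the clusters (H1-1 to H1-6 and the symbols beginning H2AC, H2BC, H3C or H4C), 9 variant genes and the linker histone genes outside the clusters, all without pseudogenes. The tables listed 79 such genes among 27819 genes common to them, 66 clustered and 13 outside the clusters. A mean of at least 10 counts in DMSO or in any treated group was reached by 28 of them, of which 18 were clustered and 10 were not.

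Histones package DNA into nucleosomes, each built around H2A, H2B, H3 and H4, with H1 on the linker DNA between them. The clustered genes supply most of this protein during S phase, and their mRNAs as a rule carry no poly(A) tail. They end just after a short stem-loop that the protein SLBP binds, and NPAT drives their transcription as cells enter S phase. Most variant genes outside the clusters are transcribed in and out of S phase and give polyadenylated mRNAs, with introns in many cases. A library prepared on poly(A) sees such mRNAs fully and the clustered genes in part. Some clustered genes also give polyadenylated mRNAs that run past the stem-loop, chiefly in cells that leave the cycle or differentiate.

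The stem-loop is shown because it sets the clustered genes apart from the variants. It was searched in the hg38 genome within 100 bases after the annotated stop codon, as 16 bases with at most 1 mismatch. Introns and bases past the annotated end of the mRNA were not left out. All 66 clustered genes held it, against 1 of 13 genes outside the clusters and 0.417% of 19922 genes with an annotated stop codon. The one outside was H2AX. The most frequent form, in 38 clustered genes, is that of H2BC21, and the form of H2BC12 is found in 9 of them. In the sequences below, written 5′ to 3′ from hg38, capitals mark the bases that pair in the stem and lower case marks the loop.
H2BC12, chr6:27146366-27146381, minus strand: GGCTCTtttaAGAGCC
H2BC21, chr1:149886188-149886203, minus strand: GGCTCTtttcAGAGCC
H3C4, chr6:26196789-26196804, minus strand: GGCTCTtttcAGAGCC
H4C8, chr6:26285131-26285146, minus strand: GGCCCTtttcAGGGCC
H2AX, chr11:119094898-119094913, minus strand: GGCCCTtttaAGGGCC

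The 250 bases before the RefSeq start of H2BC12, H2BC21 and H2BC11 are shown because the first 2 of these genes carried most of the clustered histone reads and the third, which has much the same motifs, did not rise (RefSeq, GRCh38.p14). Each lies between an H2B and an H2A gene on opposite strands, with 250 bases between H2BC12 and H2AC12, 235 between H2BC21 and H2AC20 and 247 between H2BC11 and H2AC11. Capitals mark the octamer ATTTGCAT, which POU2F1 (Oct-1) binds, the CCAAT box and the TATAAA box, on either strand and with overlapping matches run together.
H2BC12, chr6:27146859-27147108, minus strand: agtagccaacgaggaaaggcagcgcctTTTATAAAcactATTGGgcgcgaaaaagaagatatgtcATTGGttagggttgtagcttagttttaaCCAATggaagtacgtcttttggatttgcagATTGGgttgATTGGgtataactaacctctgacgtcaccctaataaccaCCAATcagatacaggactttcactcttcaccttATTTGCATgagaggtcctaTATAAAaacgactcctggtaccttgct
H2BC21, chr1:149886683-149886932, minus strand: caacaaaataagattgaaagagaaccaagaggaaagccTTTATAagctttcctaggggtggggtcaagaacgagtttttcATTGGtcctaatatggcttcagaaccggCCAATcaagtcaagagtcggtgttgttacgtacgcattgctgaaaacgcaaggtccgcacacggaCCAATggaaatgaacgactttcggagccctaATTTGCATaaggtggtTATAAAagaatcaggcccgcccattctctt
H2BC11, chr6:27132796-27133045, minus strand: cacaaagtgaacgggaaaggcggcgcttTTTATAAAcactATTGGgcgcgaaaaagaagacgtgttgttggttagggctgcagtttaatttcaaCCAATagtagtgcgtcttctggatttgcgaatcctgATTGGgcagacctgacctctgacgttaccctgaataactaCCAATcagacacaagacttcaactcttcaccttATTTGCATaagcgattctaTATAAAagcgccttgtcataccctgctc

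RefSeq windows of 300 bases, from 250 before to 50 after the start, were at hand for 61 of the 66 clustered genes. The octamer was in 14 of 17 H2B and 11 of 15 H2A windows, against 1.8% of the 27305 windows of all genes. It was in none of the 12 H4 and 6 H1 windows and in 1 of 11 H3 windows, that of H3C4, whose RefSeq start lies at the start of the neighbouring H2AC7. The CCAAT box was in 85.2% of the clustered windows and 35.7% of all windows, and TATAAA in 67.2% and 12%. These matches describe letters in the windows and were not tested against the expression values.

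Reads on the clustered genes were few and lay on a small number of them. Of the 66 clustered genes 12 had no read in any of the 14 libraries. Among these, H4C15, H4C14 and H3C14 are identical to other genes in 100%, 94.9% and 99.1% of their 100-base transcript windows, and the rest in none. The nearly empty H3C15, H2AC18 and H2AC19 are so in 100%, 100% and 99.8%. How reads with several positions were counted is not known, so low counts of these near-identical genes may not mean absence. In DMSO the whole class took 1108, 998 and 851 counts, out of 17689717, 17453956 and 15398797 counts on all genes. By class, 2 of 6 H1, 7 of 16 H2A, 5 of 17 H2B, 3 of 13 H3 and 1 of 14 H4 genes reached a mean of 10 counts in some group. Of these 18 genes 13 reached it in DMSO, so 5 (H2AC8, H2AC13, H2AC15, H2AC17 and H3C6) passed only through a treated group. Just inside the minimum lay H2AC13 with a highest group mean of 10.3 counts and H2BC4 with 11.3, and just outside it H2BC18 with 9.67 and H4C5 with 8.67.

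The genes outside the clusters were read far more deeply. In DMSO their summed level was 3740, 3590 and 3680 CPM (counts of a gene scaled to the library total, with TMM factors), against 61.3, 55.8 and 53.0 CPM for the clustered genes. Per kilobase of GENCODE exon, the mean DMSO level was 411 CPM for H2AZ1, 328 for H2AX and 265 for H1-10. It was only 19.0 for MACROH2A1, 12.1 for CENPA and 1.74 for MACROH2A2, so on this scale the sets overlapped. The highest clustered level on the same scale was 29.9 CPM per kilobase for H2BC12, followed by 7.43 for H1-2, 7.19 for H2BC21 and 3.82 for H3C4. The value of H2BC12 rests on the short GENCODE model, and RefSeq gives this gene a longer one. H2AX, the only member outside the clusters with the stem-loop, is also annotated 1024 bases past it.

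With RefSeq spans included, genes annotated past the stem-loop held more of the reads. In GENCODE or RefSeq, 15 clustered genes have a transcript that runs more than 100 bases past the stem-loop, and 51 end at it. The 15 took 71.4% of the clustered counts over all libraries, with a median of 142 counts per gene, and 9 of them reached a mean of 10 counts. The 51 took the other 28.6%, with a median of 25 counts, and 9 of them reached it as well. H2BC12 with 4670 counts and H2BC21 with 4371 made up most of the 11123 counts of the 15. The longer form of H2BC12 stands only in RefSeq. By GENCODE alone the share was 41.4% in 14 genes, less than that of the other clustered genes. A longer model also collects reads over more bases, and the part of length in these counts was not tested. H1-2 and H3C4, which came next after H2BC12 and H2BC21 by counts, are annotated to the stem-loop.

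**Figure D1:**
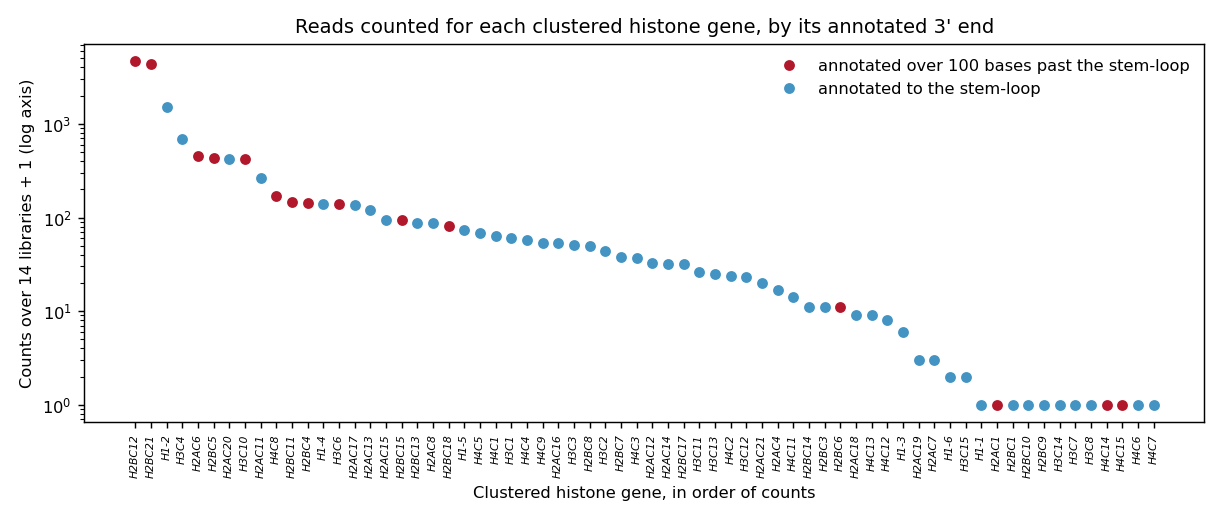
Counts summed over the 14 libraries, plus 1, on a log axis, for each of the 66 clustered histone genes in order of counts. Red points mark the 15 genes annotated over 100 bases past the stem-loop and blue points the 51 annotated to it; H2BC12 (4670 counts) and H2BC21 (4371) stand above the rest, and 12 genes lie at 0.

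The cells carried the markers of their label. All 8 prostate luminal markers were read. Their sum lay between 2410 and 2510 CPM in DMSO and between 2790 and 3300 CPM in the treated libraries. With each inhibitor 6 of 8 were called higher. Of all genes tested 21.6%, 25.6%, 11.5% and 9.02% were called higher with Fucotrim I, Fucotrim II, SGN-2FF and P-SiaFNEtoc. The 8 markers of other cell types summed to between 17.4 and 29.6 CPM in all libraries, nearly all of it COL1A1, a collagen gene, and the T cell marker CD3E was at 0 in every library. Of these 8 only COL1A1 and COL3A1 had enough counts to be tested, the latter not with P-SiaFNEtoc. COL1A1 was called higher with Fucotrim II, from a mean of 17.3 to 26.2 CPM (log2 fold change 0.59, edgeR adjusted p = 0.00185), and neither gene passed with another inhibitor. The part of COL1A1-expressing cells in the histone values was not tested. Replicates of a group correlated with r between 0.9905 and 0.9957 across genes on the log2 CPM scale, and no library stood apart. In bulk libraries a change in the share of cells in S phase and a change in mRNA per cell cannot be told apart.

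With Fucotrim I, 3 of the 12 clustered members tested were called higher and none lower (edgeR quasi-likelihood test, adjusted p-value under 0.05 over all genes tested). Of all 14188 genes tested 21.6% were called higher and 22.1% lower, so the share called higher was near the background. The 3 were H2BC12, H2BC21 and H3C4. The median log2 fold change of the 12 was 0.08, against 0 over all genes, with a range from -0.35 to 0.92. The libraries of 4 members lay entirely above DMSO and those of 1 (H2BC11) entirely below, against 24.0% and 28.3% of all genes. H3C6, among the 4, passed the minimum only through treated groups, so that count leans upward by choice.

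With Fucotrim II, 6 of 16 clustered members tested were called higher and none lower, against 25.6% called higher and 25.7% called lower of 14617 genes. They were H2BC12, H2BC21, H3C4, H1-2, H2BC5 and H3C10, all of which reached 10 counts in DMSO as well. The median log2 fold change was 0.66, against 0.01 over all genes, with a range from -1.04 to 1.63. The libraries of 10 members lay entirely above DMSO and those of 2 entirely below, against 33.7% of all genes for each direction. Some of these members passed the minimum only through the treated libraries. Among them H2AC8, which set the upper end of the range, and H3C6 lay entirely above DMSO. The median, the range and the count of 10 therefore lean upward by choice. Over all 18 clustered genes tested, the minimum set aside, 6 were called higher and 1, H2BC18, lower.

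With SGN-2FF 1 of 12 clustered members tested was called higher and with P-SiaFNEtoc 1 of 13, in both cases H2BC12, and none was called lower. The background was 11.5% higher and 9.08% lower with SGN-2FF and 9.02% higher and 7.33% lower with P-SiaFNEtoc. Medians were 0.30 and 0.25 on the log2 scale, against 0 over all genes. Libraries lay entirely above DMSO for 2 members with each inhibitor (H2BC12 and H3C4) and entirely below for 1 (H2BC21) with SGN-2FF and none with P-SiaFNEtoc. Of all genes 16.2% lay above and 20.2% below with SGN-2FF, and 16.6% above and 16.8% below with P-SiaFNEtoc. The 4 comparisons share the 3 DMSO libraries, so that a call repeated between them is not independent.

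**Figure D2:**
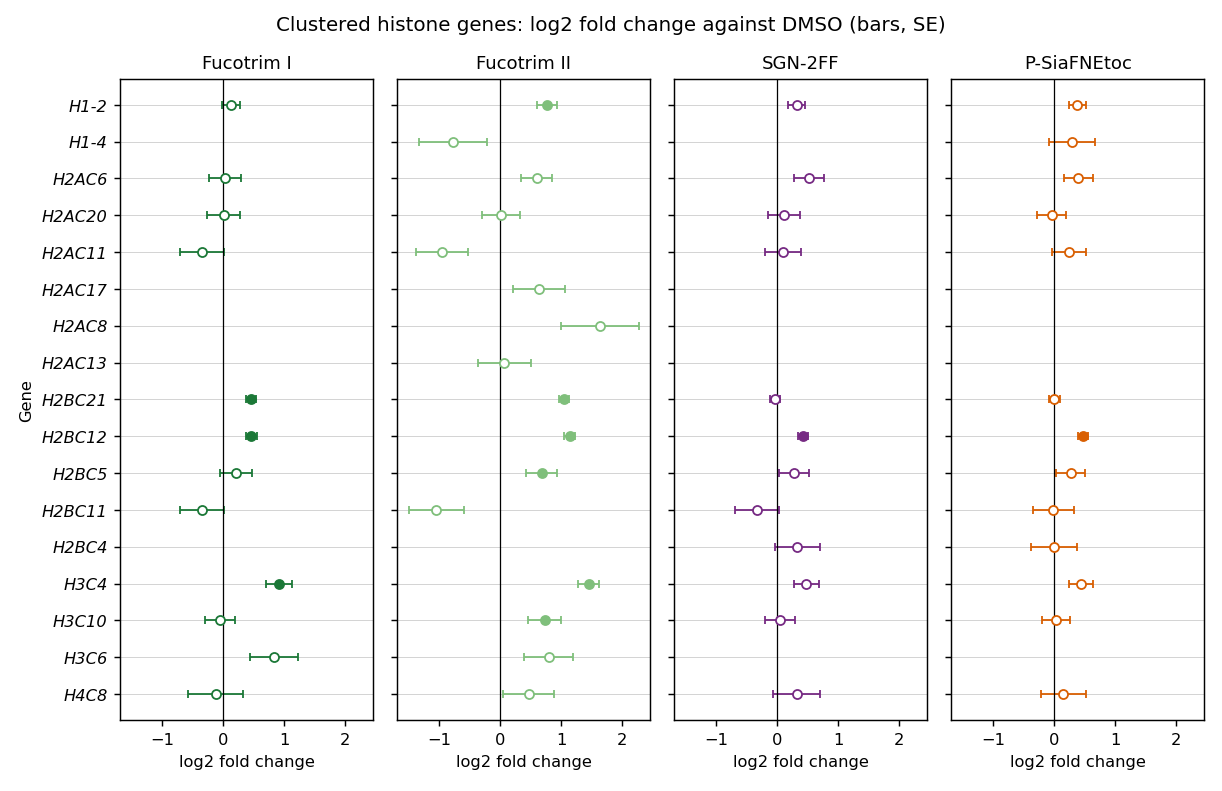
Log2 fold change against DMSO of the clustered members tested, with 1 panel per inhibitor; bars are standard errors and filled points passed an adjusted p-value of 0.05. H2BC12 is filled in all 4 panels, H2BC21 and H3C4 with Fucotrim I and II, and H1-2, H2BC5 and H3C10 with Fucotrim II only; genes without a point in a panel were too low to be tested there.

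H2BC12 (GENCODE chr6:27146361-27146855, minus strand, 1 exon) encodes an H2B of the core nucleosome. Its level was 16.0, 14.9 and 13.6 CPM in DMSO, from 290, 266 and 219 counts. It was 20.9, 20.3 and 19.7 CPM with Fucotrim I, 31.5 and 34.3 with Fucotrim II, 20.6, 19.6 and 19.2 with SGN-2FF, and 19.1, 21.5 and 21.6 with P-SiaFNEtoc. Every treated library lay above every DMSO library. The log2 fold changes were 0.46 ± 0.09 (SE), 1.14 ± 0.09, 0.43 ± 0.08 and 0.48 ± 0.08, with edgeR adjusted p-values of 0.00032, 2.43e-05, 0.000505 and 0.000138. In 22.5% of its 100-base windows the gene is identical to other H2B sequences, among them H2BC12L.

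H2BC21 (chr1:149884459-149886682, minus strand) encodes another H2B, and its annotated mRNA runs 1729 bases past the stem-loop. DMSO libraries held 16.0, 16.0 and 16.1 CPM. Fucotrim I gave 22.6, 21.2 and 21.8 CPM and Fucotrim II 31.5 and 34.5 CPM, all above DMSO. SGN-2FF gave 15.8, 15.3 and 15.6 CPM and P-SiaFNEtoc 17.1, 13.6 and 17.0 CPM, the former just below DMSO and the latter on both sides of it. H2BC21 rose by 0.46 ± 0.08 with Fucotrim I and 1.04 ± 0.08 with Fucotrim II on the log2 scale (edgeR adjusted p = 0.000162 and 2.29e-05). The log2 fold changes were -0.03 ± 0.08 with SGN-2FF (adjusted p = 0.835) and 0.00 ± 0.09 with P-SiaFNEtoc (adjusted p = 0.997). Whether the change of H2BC21 differed between inhibitors was not tested.

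H3C4 (chr6:26196784-26197286, minus strand) encodes a replication-dependent H3. In DMSO it had 1.94, 1.90 and 1.93 CPM, from 35, 34 and 31 counts. Fucotrim I gave 4.29, 2.82 and 3.74 CPM, Fucotrim II 5.11 and 5.44, SGN-2FF 2.87, 2.68 and 2.42, and P-SiaFNEtoc 2.75, 2.59 and 2.46. All treated libraries again lay above all DMSO libraries. H3C4 rose by 0.92 ± 0.21 with Fucotrim I and 1.45 ± 0.17 with Fucotrim II on the log2 scale (edgeR adjusted p = 0.00141 and 0.000161), and the values of 0.48 ± 0.20 with SGN-2FF and 0.44 ± 0.20 with P-SiaFNEtoc did not pass (adjusted p = 0.0954 and 0.12). These reads cannot be assigned to H3C4 alone. GENCODE places another transcript unit, ENSG00000282988, over 96.6% of its exon bases on the same strand, and in RefSeq the H3C4 span takes in the whole of H2AC7.

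H1-2 (chr6:26055740-26056470, minus strand), the linker histone with the most reads among the clustered ones, had 6.36, 5.31 and 4.61 CPM in DMSO. Fucotrim II gave 8.30 and 10.3 CPM, above all DMSO libraries, and a log2 fold change of 0.77 ± 0.16 (edgeR adjusted p = 0.00363). The other inhibitors gave between 5.52 and 8.06 CPM and overlapped with DMSO, with log2 fold changes of 0.13 ± 0.15 for Fucotrim I, 0.32 ± 0.14 for SGN-2FF and 0.38 ± 0.14 for P-SiaFNEtoc (adjusted p = 0.492, 0.116 and 0.059). With P-SiaFNEtoc H1-2 was called higher without DMSO library 1 or P-SiaFNEtoc library 2 (edgeR adjusted p = 0.0233 and 0.0319). It was also called there with the replicate block or no filter on low counts (0.0343 and 0.0372). With SGN-2FF it was called higher without SGN-2FF library 3 (0.43, adjusted p = 0.043). H1-4, the next linker gene, had 5 to 19 counts in DMSO and passed in none of the comparisons that tested it.

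H2BC5 and H3C10 were called with Fucotrim II on few reads. H2BC5, which was named after its values were seen, had 1.55, 1.40 and 1.93 CPM in DMSO and 2.95 and 2.27 CPM with Fucotrim II, a log2 fold change of 0.68 ± 0.25 (edgeR adjusted p = 0.044). H3C10 had 1.60, 1.79 and 1.68 CPM in DMSO and 2.05 and 3.57 CPM with Fucotrim II, 34 and 63 counts, for a log2 fold change of 0.73 ± 0.27 (edgeR adjusted p = 0.0459). The second Fucotrim II library decides the size of this value, which stood at 0.26 with an adjusted p of 0.53 without it, and without DMSO library 1, 2 or 3 the adjusted p of H3C10 was 0.118, 0.092 or 0.11. H2BC5 lost its call without DMSO library 1 or 2 (adjusted p = 0.108 and 0.13) or the first Fucotrim II library (0.48, adjusted p = 0.227). Neither gene passed by DESeq2 on all libraries (adjusted p = 0.138 for H2BC5 and 0.109 for H3C10).

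**Figure D3:**
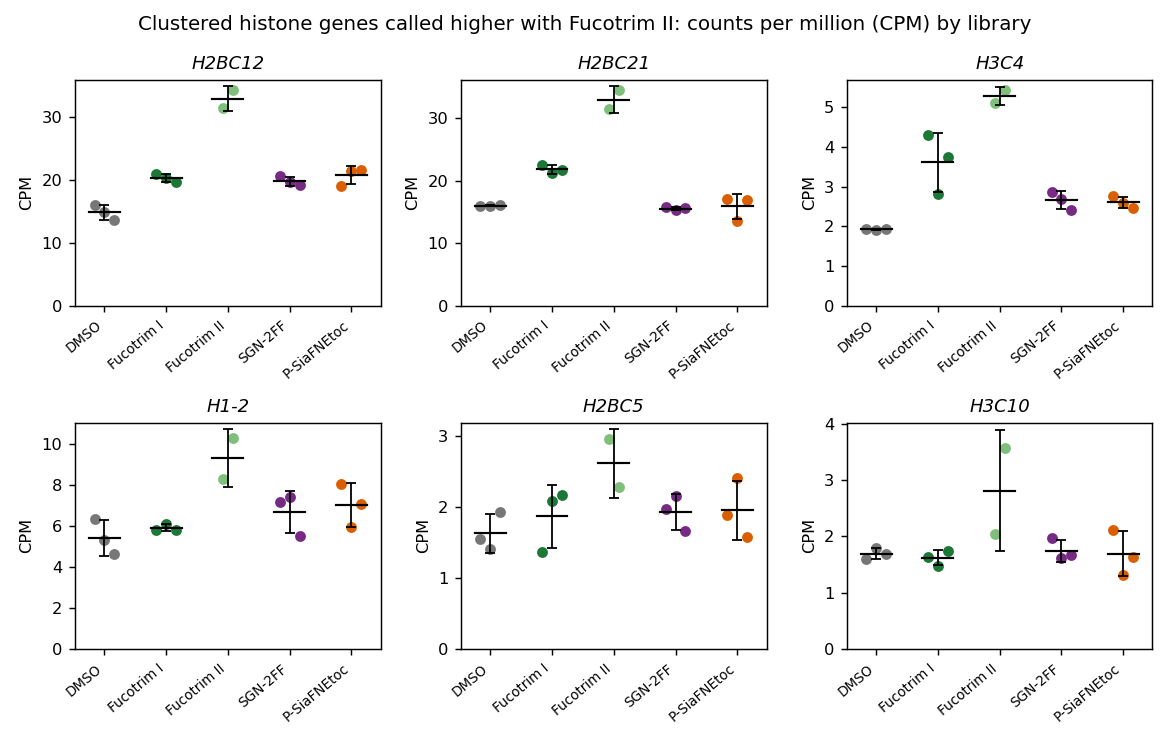
Level in CPM of the 6 clustered genes called higher with Fucotrim II, 1 point per library, with the group mean and SD as a line and bar; each axis starts at 0. Both Fucotrim II points lie above every DMSO point in all 6 panels, and for H3C10 the 2 points lie far apart (2.05 and 3.57 CPM).

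Not all clustered genes with reads moved upward with Fucotrim II. The divergent H2A partner of H2BC21, H2AC20 (chr1:149886918-149887411, plus strand), had 1.16, 2.12 and 2.37 CPM in DMSO and 1.93 and 1.87 CPM with Fucotrim II, a log2 fold change of 0.01 ± 0.31 (edgeR adjusted p = 0.974). H2BC11 and its partner H2AC11, whose shared promoter is printed above, both lay below DMSO in both Fucotrim II libraries. Their log2 fold changes were -1.04 ± 0.45 and -0.95 ± 0.42 and did not pass (edgeR adjusted p = 0.0804 and 0.085). Both were called lower in a single fit of all 14 libraries (adjusted p = 0.04 and 0.0476), H2BC11 also without the first Fucotrim II library (-1.77, adjusted p = 0.0318) and H2AC11 without DMSO library 2 (-1.19, adjusted p = 0.0468). They were named outside the naming rule, after their values were seen. H2AC6, at 1.94, 1.79 and 1.18 CPM in DMSO, gave 2.53 and 2.49 CPM with Fucotrim II and also did not pass (0.60 ± 0.25, adjusted p = 0.0708).

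H2BC18 (chromosome 1) was the one clustered gene of the tables called lower. It had 10, 13 and 6 counts in DMSO and 2 and 4 with Fucotrim II, a fitted log2 fold change of -1.63 ± 0.57 (edgeR adjusted p = 0.0372), and 36.7% of its 100-base windows are identical to other genes. The call was lost without either Fucotrim II library (adjusted p = 0.163 and 0.0514). Its mean of 9.67 counts in DMSO put it just outside the minimum. The other low members are given so that all 18 are accounted for. H3C6 had 8, 6 and 11 counts in DMSO, 14, 12 and 9 with Fucotrim I and 13 and 16 with Fucotrim II, with log2 fold changes of 0.83 ± 0.39 and 0.80 ± 0.40 that did not pass (edgeR adjusted p = 0.0868 and 0.126). H2AC8, tested with Fucotrim II only, had 10, 2 and 1 counts in DMSO and then 15 and 12, and its log2 fold change of 1.63 ± 0.64 also did not pass (adjusted p = 0.0581). H2AC17 and H2AC13 had values of 0.64 ± 0.43 and 0.07 ± 0.43 with Fucotrim II (adjusted p = 0.237 and 0.912). H3C12 overlaps 71.0% of the exon bases of H2AC17, and 58.8% of the 100-base windows of H2AC13 are also in H2AC14, so that their reads may be shared. H2BC4 had values of 0.33 ± 0.37 with SGN-2FF and 0.00 ± 0.37 with P-SiaFNEtoc (adjusted p = 0.577 and 0.995), and H2AC15 was tested with no inhibitor.

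H4 genes were the least read class. H4C8 had 14, 16 and 5 counts in DMSO and 16 and 16 with Fucotrim II, and it passed with no inhibitor. H4C5 had 5, 5 and 3 counts in DMSO and 3 and 10 with Fucotrim II, and was too low to be tested with any inhibitor.

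The summed level of the 66 clustered genes was 56.7 ± 4.22 CPM (SD, n = 3) in DMSO. It was 69.6 ± 2.93 (n = 3) with Fucotrim I, 102 ± 7.71 (n = 2) with Fucotrim II, 64.5 ± 3.61 (n = 3) with SGN-2FF and 66.6 ± 2.05 (n = 3) with P-SiaFNEtoc. Fucotrim II gave 96.1 and 107 CPM, Fucotrim I 72.9, 67.3 and 68.6, and P-SiaFNEtoc 67.7, 64.2 and 67.8, all above the highest DMSO library (61.3), whereas SGN-2FF with 67.5, 65.5 and 60.5 overlapped with DMSO. The log2 ratio to DMSO of the summed levels was 0.30, 0.83, 0.19 and 0.23 for Fucotrim I, Fucotrim II, SGN-2FF and P-SiaFNEtoc. No p-value is given for these sums, since the members were chosen with results known.

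H2BC12 and H2BC21 carried most of the difference. Their share of the clustered counts was 52.3%, 55.3% and 56.2% in DMSO and 65.6% and 64.4% with Fucotrim II. Without them the sum was 29.2, 24.9 and 23.2 CPM in DMSO, 33.1 and 38.1 with Fucotrim II and 29.4, 25.8 and 27.2 with Fucotrim I, which overlapped with DMSO. The summed level of both annotation classes was higher with Fucotrim II, but in the genes annotated to the stem-loop H1-2 and H3C4 carried the rise. Their means went from 5.43 to 9.28 CPM and from 1.92 to 5.28 CPM, and the reads of H3C4 cannot be assigned to it alone. The 15 genes annotated past the stem-loop summed to 41.2, 39.4 and 37.4 CPM in DMSO and 73.7 and 80.6 with Fucotrim II, and the 51 annotated to it summed to 20.1, 16.4 and 15.5 and then 22.4 and 26.3.

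**Figure D4:**
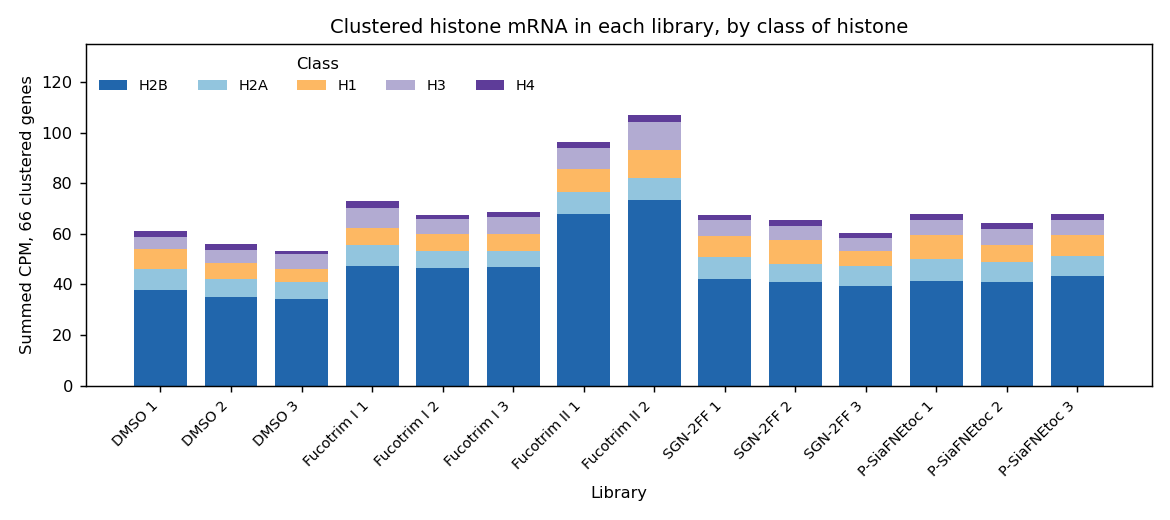
Summed CPM of the 66 clustered histone genes in each of the 14 libraries, stacked by class of histone. H2B makes up the largest part in every library (34.2 to 37.9 CPM in DMSO, 68.0 and 73.5 with Fucotrim II), and the Fucotrim II bars are the highest at 96.1 and 107 CPM.

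RNAs that lack a poly(A) tail were read beside these values, as a measure of how far such RNA entered each library. The 17 RNAs of a list of this kind (RMRP, RN7SK and others) summed to between 9.11 and 17.8 CPM in DMSO, 8.74 and 23.4 with Fucotrim I, 17.4 and 26.1 with Fucotrim II, 9.08 and 32.7 with SGN-2FF, and 13.0 and 18.3 with P-SiaFNEtoc. Of 5 tested, 1 was called higher with Fucotrim I, 2 with Fucotrim II, 0 with SGN-2FF and 2 with P-SiaFNEtoc, and none lower, against 21.6%, 25.6%, 11.5% and 9.02% of all genes called higher. RN7SL1, the RNA of the signal recognition particle, had log2 fold changes of 1.29, 1.05, 0.69 and 1.23 in that order (edgeR adjusted p = 0.00492, 0.0223, 0.144 and 0.00256). The median log2 fold change of the 5 was 0.29, 0.73, 0.69 and 0.37 in that order. The part of this RNA in the clustered histone values was not tested.

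Outside the clusters all 10 members with 10 counts or more were tested with each inhibitor. None rose and 3 fell with Fucotrim I, 1 rose and 4 fell with Fucotrim II, 3 rose and 3 fell with SGN-2FF, and 2 rose and 2 fell with P-SiaFNEtoc. Of all genes tested 21.6%, 25.6%, 11.5% and 9.02% were called higher in that order, and 22.1%, 25.7%, 9.08% and 7.33% lower. The share called higher lay below this background with both Fucotrims and above it with SGN-2FF and P-SiaFNEtoc. The share called lower lay above it with each inhibitor. With 10 members these gaps amount to a few genes at most. Median log2 fold changes were -0.04, -0.11, 0.03 and 0.07. H2AJ, with at most 2 counts in a library, and H1-7 and H1-8 were not tested. The summed level of the genes outside the clusters lay between 3150 and 3840 CPM in all 14 libraries. The calls with SGN-2FF were the least firm, since none of the 6 passed without the second SGN-2FF library, where 6 had an unadjusted p under 0.05 by edgeR, and 3 passed in DESeq2 on all libraries.

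CENPA (chr2:26764289-26801067, plus strand), the H3 variant that marks centromeres and is made mainly in G2, was the only member called lower with all 4 inhibitors. DMSO libraries had 25, 22.2 and 23.3 CPM. Fucotrim I gave 16.2, 19.2 and 16.8 CPM, Fucotrim II 9.75 and 7.48, SGN-2FF 18.7, 19.8 and 21.2, and P-SiaFNEtoc 17.4, 17.4 and 19.0. Every treated library lay below every DMSO library. CENPA fell by 0.42 ± 0.09, 1.45 ± 0.13, 0.22 ± 0.08 and 0.39 ± 0.08 on the log2 scale in that order (edgeR adjusted p = 0.000815, 3.44e-05, 0.0384 and 0.000544). With SGN-2FF the call was lost without DMSO library 1 or 3 or SGN-2FF library 1 or 2 (adjusted p from 0.0817 to 0.156).

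The H3.3 genes H3-3A and H3-3B, which encode the same protein for replacement outside S phase, had opposite signs. H3-3A (chr1:226061851-226072019, plus strand) had 150, 152 and 162 CPM in DMSO and 197 and 212 with Fucotrim II, entirely above. It had 179, 155 and 171 CPM with Fucotrim I, 173, 178 and 165 with SGN-2FF and 163, 165 and 183 with P-SiaFNEtoc. Its log2 fold changes were 0.14 ± 0.06, 0.40 ± 0.07, 0.17 ± 0.04 and 0.15 ± 0.05 with Fucotrim I, Fucotrim II, SGN-2FF and P-SiaFNEtoc (edgeR adjusted p = 0.059, 0.000941, 0.00553 and 0.03), so that 3 of 4 passed. H3-3B (chr17:75776434-75785893, minus strand) had 458, 480 and 460 CPM in DMSO, 429, 393 and 410 with Fucotrim I, and 373 and 430 with Fucotrim II. SGN-2FF gave 428, 427 and 415 CPM and P-SiaFNEtoc 441, 442 and 459 CPM, the latter in reach of DMSO. Its log2 fold changes were -0.17 ± 0.05, -0.22 ± 0.07, -0.12 ± 0.03 and -0.05 ± 0.04 (edgeR adjusted p = 0.00654, 0.0277, 0.0113 and 0.355). The call of H3-3B with Fucotrim II was lost without any 1 of the 3 DMSO libraries (adjusted p from 0.0866 to 0.119), and its call with SGN-2FF without SGN-2FF library 2 (0.0542). H3-3A lost its call with SGN-2FF without library 2 (0.07), and with P-SiaFNEtoc without DMSO library 1 or 2 or P-SiaFNEtoc library 2 or 3 (from 0.0562 to 0.177). In 15.6% of its 100-base windows H3-3A is identical to processed copies such as H3P6.

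The H2A.Z genes encode the variant found at promoters and fell with Fucotrim II. H2AZ1 (chr4:99948086-99950355, minus strand) had 928, 953 and 920 CPM in DMSO and 742 and 785 with Fucotrim II, a log2 fold change of -0.29 ± 0.06 (edgeR adjusted p = 0.00334). H2AZ2 (chr7:44826791-44848087, minus strand) had 375, 381 and 374 CPM in DMSO and 316 and 311 with Fucotrim II, a log2 fold change of -0.27 ± 0.06 (adjusted p = 0.00365). All libraries of H2AZ2 lay below DMSO with each of the 4 inhibitors, at 356 to 372 CPM with Fucotrim I, 339 to 355 with SGN-2FF and 332 to 348 with P-SiaFNEtoc. Its falls of 0.10 with SGN-2FF and 0.15 with P-SiaFNEtoc passed (edgeR adjusted p = 0.0364 and 0.0066), and its value of -0.04 with Fucotrim I did not (adjusted p = 0.467). The call with P-SiaFNEtoc was lost without P-SiaFNEtoc library 2 (0.0597), and that with SGN-2FF without any 1 of 5 libraries, SGN-2FF library 3 excepted (0.0542 to 0.15). H2AZ1, at 887 to 924 CPM with Fucotrim I, 927 to 953 with SGN-2FF and 961 to 1000 with P-SiaFNEtoc, passed with none of these 3.

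H1-10, which encodes a linker histone, ranged from 343 to 437 CPM in DMSO alone and passed in no comparison, with log2 fold changes between 0.00 and 0.15. With the replicate number as a block it was called higher in 2 settings. These were P-SiaFNEtoc by title number (0.15, edgeR adjusted p = 0.00799) and Fucotrim II by library name (0.21, adjusted p = 0.0418).

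Among the rest, H2AX (chr11:119093874-119095465, minus strand), the variant phosphorylated at DNA breaks, had 559, 481 and 527 CPM in DMSO and passed with no inhibitor. Its largest log2 fold change was -0.17 ± 0.10 with Fucotrim II (edgeR adjusted p = 0.186), where the libraries had 412 and 520 CPM. Without the second Fucotrim II library H2AX was called lower (-0.35, adjusted p = 0.00164), and without DMSO library 2 it was called lower with SGN-2FF (-0.14, adjusted p = 0.0173). MACROH2A1, which encodes macroH2A1, a histone of silent chromatin, had 324, 320 and 327 CPM in DMSO and 353, 349 and 331 with SGN-2FF. It passed with SGN-2FF alone, at 0.10 ± 0.04 (adjusted p = 0.0414), which was lost without any 1 of 5 libraries, SGN-2FF library 3 excepted (adjusted p from 0.0871 to 0.175). With Fucotrim II the value of MACROH2A1 was -0.05 ± 0.06, and -0.13 without the second Fucotrim II library. MACROH2A2 had 27.3, 25.7 and 25.5 CPM in DMSO and passed with no inhibitor when all libraries were kept. Its log2 fold change with Fucotrim II was 0.15 ± 0.09, and 0.26 without the first Fucotrim II library.

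**Figure D5:**
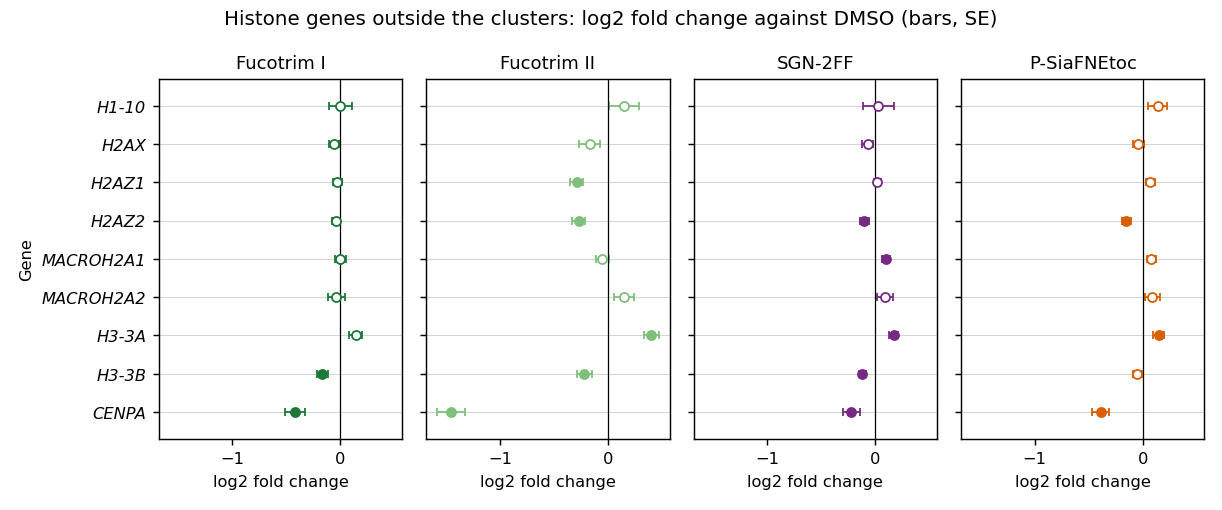
Log2 fold change against DMSO of 9 members outside the clusters, with 1 panel per inhibitor; bars are standard errors and filled points passed an adjusted p-value of 0.05. CENPA lies furthest left in each panel, reaching -1.45 with Fucotrim II, and H3-3A is to the right of 0 and H3-3B to the left of it in every panel.

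The genes that make, process and deposit histones were counted from lists chosen for their function. Beside these lists, 21.6%, 25.6%, 11.5% and 9.02% of all genes tested were called higher and 22.1%, 25.7%, 9.08% and 7.33% lower, with Fucotrim I, Fucotrim II, SGN-2FF and P-SiaFNEtoc. Of 15 genes of histone transcription and 3′ end processing, 0 rose and 5 fell with Fucotrim I, 1 rose and 8 fell with Fucotrim II, 3 rose and 1 fell with SGN-2FF, and 0 rose and 2 fell with P-SiaFNEtoc. The share that fell was above the background with both Fucotrims and within 1 gene of it with SGN-2FF and P-SiaFNEtoc. SLBP, which binds the stem-loop, passed with none of them, with mean levels of 194 CPM in DMSO and 178 with Fucotrim II (-0.13, edgeR adjusted p = 0.0914). NPAT had a mean of 26.8 CPM in DMSO and 20.2 with Fucotrim II and fell by 0.42 on the log2 scale (adjusted p = 0.0186). POU2F1, the octamer factor, fell with all 4, by 0.37, 0.64, 0.20 and 0.25 (edgeR adjusted p = 0.000335, 0.000268, 0.0177 and 0.00414). Of 7 genes of histone mRNA decay none rose and 2, 1, 1 and 2 fell, which differs from the background by fewer than 2 genes in each comparison. ERI1, an exonuclease of the stem-loop end, fell by 0.61 with Fucotrim II (adjusted p = 0.000389).

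Of 26 histone chaperones and exchange factors tested, 14 fell and 2 rose with Fucotrim I, 18 fell and 2 rose with Fucotrim II, 7 fell and 1 rose with SGN-2FF, and 7 fell and 0 rose with P-SiaFNEtoc. The background of genes called lower was 22.1%, 25.7%, 9.08% and 7.33% in that order, and the share that fell was above it with each inhibitor. CHAF1A, a subunit of the CAF-1 complex that places new H3 and H4 on replicated DNA, fell by 0.20 with Fucotrim II (edgeR adjusted p = 0.0265), and ASF1B, a chaperone of H3 and H4, fell by 0.24 (adjusted p = 0.0118). HJURP, the chaperone of CENPA, had a mean of 92.5 CPM in DMSO and 61.4 with Fucotrim II and fell by 0.59 (adjusted p = 0.000193). It also fell with P-SiaFNEtoc, by 0.25 (adjusted p = 0.000299), and its values of -0.07 with Fucotrim I and -0.11 with SGN-2FF did not pass (adjusted p = 0.32 and 0.105). The one gene not tested was DAXX, a chaperone of H3.3, which had a mean of 0.0932 CPM in DMSO.

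S phase genes were mostly lower with Fucotrim II, where the clustered histone sum was higher. Of 22 such genes 17 fell and 1 rose with Fucotrim II, 16 fell and 1 rose with Fucotrim I, 4 fell and 0 rose with SGN-2FF, and 9 fell and 1 rose with P-SiaFNEtoc. Their median log2 fold changes were -0.43, -0.20, -0.06 and -0.08 in that order, and the background of genes called lower was 25.7%, 22.1%, 9.08% and 7.33%. PCNA, the sliding clamp of DNA replication, had a mean of 235 CPM in DMSO and 182 with Fucotrim II and fell by 0.37 (edgeR adjusted p = 0.00241). The S phase list summed to between 4370 and 4510 CPM in DMSO and to 3260 and 3550 with Fucotrim II, below all DMSO libraries.

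H2AW, listed under that symbol in the tables and as H2AC25 in RefSeq, lies outside the symbol rule and was looked at after its values were seen. It carries the stem-loop and is annotated 22592 bases past it in GENCODE. It had 138, 98 and 125 counts in DMSO and 275 and 310 with Fucotrim II. The log2 fold change of H2AW was 1.29 ± 0.15 for Fucotrim II (edgeR adjusted p = 0.000124) and 0.48 ± 0.14 with Fucotrim I (adjusted p = 0.00782), and it did not pass with SGN-2FF or P-SiaFNEtoc (adjusted p = 0.0736 and 0.0882).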

How the data were processed

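Stranded mRNA libraries were sequenced by the authors as single reads of 100 bases, trimmed with Cutadapt, mapped to hg38 with HISAT2 and counted with featureCounts. The authors deposited raw counts of reads per gene, which were not normalized, as 4 tables that each pair 1 inhibitor with the 3 DMSO libraries. The annotation, strand setting and treatment of reads with several positions are not given in the sources used here, so near-identical, overlapping and antisense genes cannot be told apart. The SGN-2FF table has no symbols and was joined by NCBI gene number. Doses and time come from the paper's methods. Titles name the libraries as biological repeats, and 2 Fucotrim II libraries were analysed here.

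Totals on genes ran from 12553094 to 19981314 counts per library. At 10 counts the counting error alone is large, so values of the least read genes are coarse. Each inhibitor was fitted alone with DMSO by the robust quasi-likelihood test of edgeR 4.0.16 in R 4.3.3, with TMM and filterByExpr (minimum count 10, minimum total 15), and p-values were adjusted over all genes tested (Benjamini-Hochberg, threshold 0.05). The standard error is the fold change over the root of its F statistic. CPM used 1 TMM scaling of all 14 libraries. The test was checked on simulated counts. Members and lists were chosen with earlier results of these data known. Named genes were the 9 variants, H1-10, the 2 genes with the highest mean CPM of each clustered class, the 3 largest rises and falls per inhibitor among called genes without overlap, and SLBP, NPAT, CHAF1A, ASF1B, HJURP and PCNA. The other members of the 18, H2AW, POU2F1, ERI1, RN7SL1 and DAXX were named after their values were seen. Positions and stop codons come from GENCODE 44, stem-loops from hg38, and promoters and longer gene spans from RefSeq. Alternatives were leaving out each library, the replicate number as a block, DESeq2 1.42.0 size factors and test, limma-voom (limma 3.58.1), other filters, a threshold of 0.01 and a single fit. The result for 1 gene outside the clusters is not reported here, though the counts include it.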

Additional observations from a re-analysis of the deposited data

How the results depend on the processing

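For both Fucotrims the number of clustered members called stayed within 1.5 times of its value in all alternatives (3 with Fucotrim I, 4 to 8 with Fucotrim II). The 8 came from the single fit of all 14 libraries and were 6 higher and 2 lower, H2BC11 (adjusted p = 0.04) and H2AC11 (0.0476). H2BC11 was also called lower without Fucotrim II replicate 1 (0.0318) and H2AC11 without DMSO replicate 2 (0.0468). H2BC12 kept its call with all 4 inhibitors in every alternative, and H2BC21 and H3C4 kept theirs with both Fucotrims. Leaving out 1 library at a time gave 4 to 8 members outside the clusters with Fucotrim II (8 without Fucotrim II replicate 2), 1 to 2 clustered members with SGN-2FF and 1 to 2 with P-SiaFNEtoc, 0 to 6 members outside with SGN-2FF (2 without DMSO replicate 3 or SGN-2FF replicate 1, 3 without DMSO replicate 1, 0 without SGN-2FF replicate 2), and 1 to 4 outside with P-SiaFNEtoc (2 without DMSO replicate 2, 1 without P-SiaFNEtoc replicate 2). Over all genes it gave 1642 to 3109 calls with SGN-2FF, against 2946, and 1516 to 2115 with P-SiaFNEtoc, against 2331, the lowest without replicate 2 of each. DESeq2 called 3 members outside the clusters and 1949 of all genes with SGN-2FF, and 1463 of all genes with P-SiaFNEtoc. An adjusted p under 0.01 left 1 and 1609 with SGN-2FF, and 2 and 1171 with P-SiaFNEtoc. A single fit of all 14 libraries left 0 members outside (4 had an unadjusted p under 0.05 by edgeR) and 1695 of all genes with SGN-2FF, and 2 and 998 with P-SiaFNEtoc. Without a filter on low counts 2 clustered members were called with P-SiaFNEtoc. The cause of these shifts was not tested. For single named genes, 1096 values under an alternative kept their side of the threshold, 77 lost their call and 20 gained one, and no called value changed its direction. Depth limits most the clustered genes other than H2BC12, H2BC21, H1-2 and H3C4, whose calls rest on at most 63 counts per library.

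Samples of the same replicate number share that number, and the labels do not say whether they were handled together. The correlation of their deviations from the group means was 0.16, 0.14 and 0.03 with Fucotrim I, -0.16 and -0.24 with Fucotrim II, 0.03, -0.04 and -0.09 with SGN-2FF and -0.06, 0.03 and -0.03 with P-SiaFNEtoc. With the replicate block by title number, 2 members outside the clusters were called with Fucotrim II, where H2AZ1, H2AZ2 and H3-3B lost their calls (adjusted p = 0.0893, 0.106 and 0.188), as did the clustered H3C10 and H2BC5 (0.102 and 0.0604), and 2 clustered members with P-SiaFNEtoc. The numbers in the Fucotrim II library names differ from those in its titles. By the library names the correlations were 0.24 with DMSO library 2 and 0.08 with DMSO library 3. A replicate block by the library names gave 7 clustered members and 6 outside, with H2BC5 again not called (0.0558).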
